A study of Drosophila melanogaster with 4 samples.

Results

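The bithorax complex of Drosophila melanogaster was examined for enrichment of histone H3 over Input chromatin in adult heads. The complex was taken as all enriched regions on chromosome arm 3R that overlap 3R 12480000 to 12810000 of FlyBase release 5, a window of 330001 bp that holds the homeotic genes Ubx, abd-A and Abd-B and the DNA between them. It held 118 of the 21863 regions in 3 deposited lists, of which 15 of 2327 were in the replicate 1 list, 17 of 2779 in the replicate 2 list and 86 of 16757 in the combined list of both replicates together. The nearest combined regions outside the window ended at 3R 12478085 and began at 3R 12816252, so no region lay across its edges.

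The flies were wild-type Oregon-R flies, labelled as mixed adults, from population cages, and this strain, genotype, stage and tissue are shared by every library. There were 2 ChIP libraries, made with an antibody named H3 antibody3, and 2 Input libraries, 1 for each ChIP replicate. A head library pools all cell types of the head from many flies, so these values are averages over cells that may differ at the complex. The labels do not say whether the replicates came from separate cages. The lists hold positions and a score for each region and no expression values, so the labelled tissue was not checked against its markers, and depth is unknown.

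Ubx, abd-A and Abd-B encode homeodomain transcription factors that give the posterior thorax and the abdomen their segment identity. They stand in the order along the chromosome in which they act along the body, and long stretches of regulatory DNA, which are also transcribed into noncoding RNAs, lie between them. In the head and other anterior tissue the complex is known to be kept silent by Polycomb group proteins, which act on nucleosomes and mark histone H3. Histone H3 itself is part of every nucleosome, so an H3 region records nucleosomal DNA recovered over Input and not a histone mark.

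In all 3 lists H3 regions covered a larger share of the bithorax window than of the rest of 3R. In the combined list 154147 bp of the window, 46.7%, lay in regions, and of the rest of 3R 26.3% did, a ratio of 1.78. In replicate 1 the covered share was 7.51% of the window and 3.64% of the rest of 3R, and in replicate 2 it was 8.79% of the window and 4.51% of the rest of 3R. The ratio was 2.06 in replicate 1 and 1.95 in replicate 2 (2.01 ± 0.0778, SD, n = 2), so both replicates lay on the same side. The replicate mean was 8.15% ± 0.903 in the window and 4.07% ± 0.609 in the rest of 3R (SD, n = 2 each). Both are parts of the same 2 libraries and not independent groups, so the ratio within each library is the comparison. No test was made, since each of the 2 ChIP libraries gives 1 value.

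**Figure D1:**
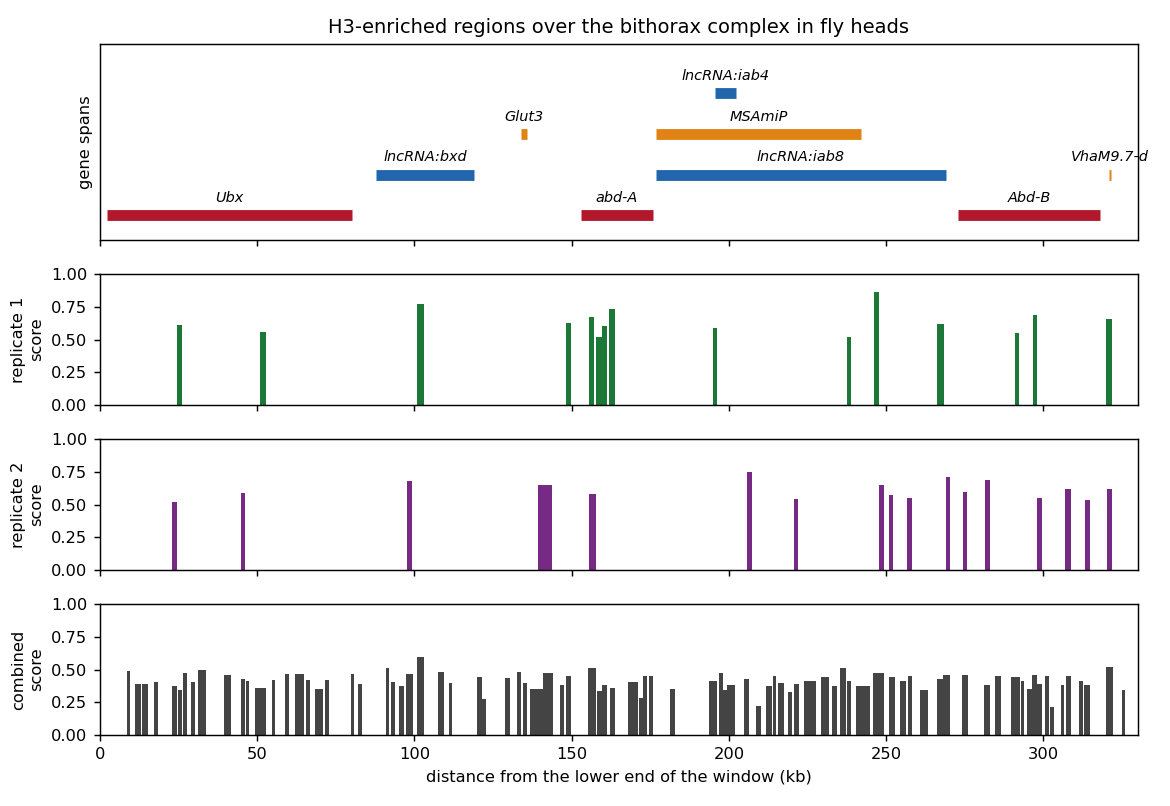
Gene spans (top row) and H3-enriched regions of replicate 1, replicate 2 and the combined list, drawn as bars from start to end with the authors' score as height, against distance in kb from the lower end of the window. Homeotic genes are red, noncoding RNA genes blue and other protein-coding genes orange. The 86 combined regions run through the genes and the DNA between them, and the replicate lists hold 15 and 17 regions.

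The window was set against 82 other windows of the same length, tiled outwards from it along 3R. In the combined list it was the most covered of all 83, with 46.7%, against a median of 25.6% and a range of 9.01% to 42.7% in the others. The next was 3R 22380030 to 22710030, at 42.7%. In replicate 1 the bithorax window was the 3rd from the top, below 3R 6209981 to 6539981 (7.89%) and 3R 25350039 to 25680039 (7.85%). In replicate 2 it was the 6th, and the highest window there was again 3R 25350039 to 25680039, at 11.6%. The window thus led in the combined list and not in the replicate lists, and in each replicate it lay above the 90th percentile of the others, which was 5.93% in replicate 1 and 7.35% in replicate 2.

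**Figure D2:**
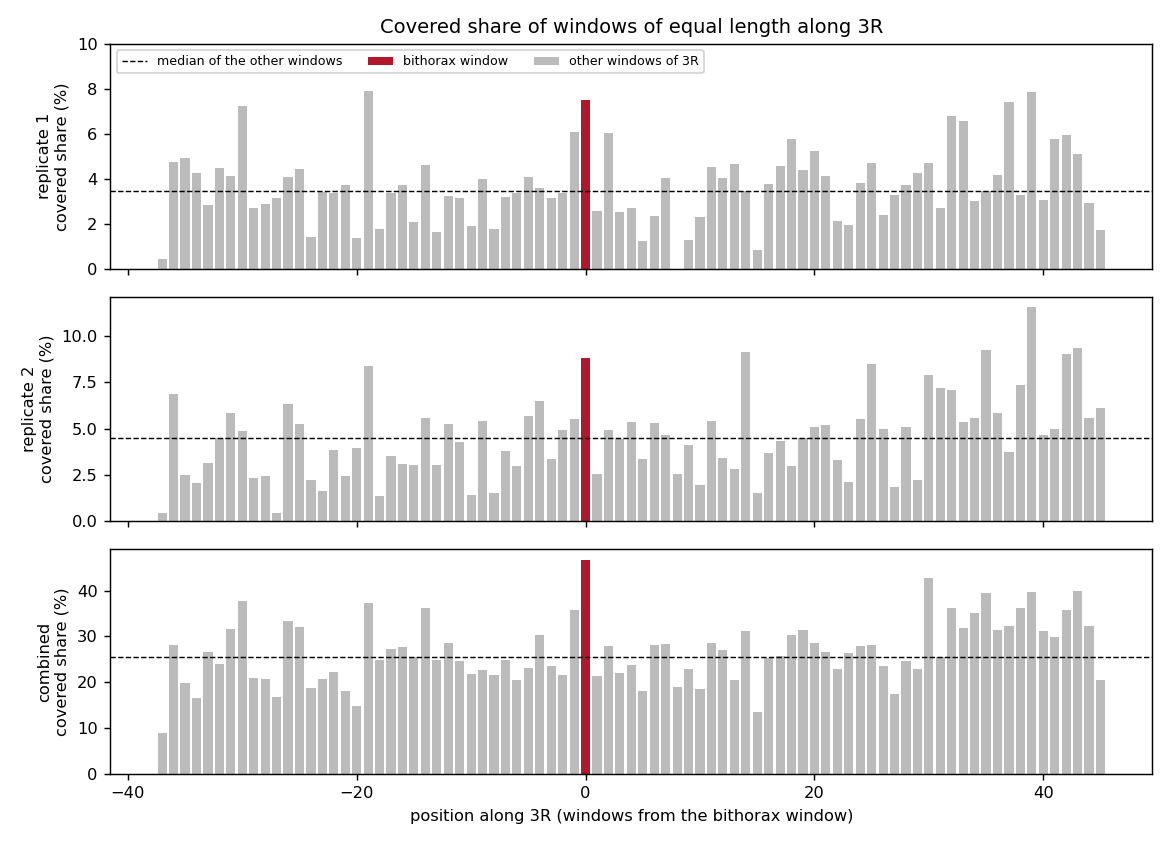
Share of bases inside H3 regions (%) in 83 windows of equal length along 3R, ordered by position and numbered from the bithorax window (red), for replicate 1, replicate 2 and the combined list. Dashed lines give the median of the other windows, 3.45%, 4.51% and 25.6%. The red bar is the highest in the combined list, the 3rd in replicate 1 and the 6th in replicate 2.

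The complex is gene-poor, so it was also set against other gene-poor windows. It held 42 annotated gene ends, fewer than any of the 82 other windows, which held 46 to 164 with a median of 101. Over the 83 windows the covered share in the combined list and the number of gene ends were weakly and inversely related (Pearson r = -0.22, Spearman rho = -0.20), as a description of windows that share libraries and lie next to each other. The 83 include the bithorax window itself, which had both the fewest gene ends and the highest combined share and so adds to this relation. In the replicate lists Spearman rho was -0.058 (replicate 1) and -0.18 (replicate 2). The 20 other windows with the fewest gene ends (46 to 81) had a median combined share of 26.7%, against 25.6% in all 82. In the replicate lists, where the bithorax window did not lead, 1 of these 20 was above it in replicate 1 (median 3.39%) and 2 were in replicate 2 (median 4.78%). The medians of all 82 other windows were 3.45% in replicate 1 and 4.51% in replicate 2. Whether gene density had a part in the result was not tested further.

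The flanks of the complex differed from each other. The flank of the same length below the window had 35.7% of its bases in combined regions, and 6.07% and 5.53% in replicates 1 and 2. These were 1.36, 1.67 and 1.23 times the shares of the rest of 3R. The flank above had 21.4%, and 2.55% and 2.56%, which were 0.813, 0.699 and 0.568 times those shares. In the 50 kb just below the window 31.8% was covered, and in the stretch between 100 and 150 kb below it 47.5%, which held only 2 gene ends. In the 50 kb just beyond the window 35.3% was covered, though the first 10 kb of it had 11.9%, and in the next 50 kb 14.0% was. In each list the flank below was more covered than the flank above, and both were less covered than the complex.

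Combined regions in the complex were set more closely than elsewhere on 3R, at similar lengths and scores. There were 26.1 per 100 kb in the window and 15.8 per 100 kb in the rest of 3R. The median gap between neighbouring regions was 1348 bp in the window and 2822 bp in the rest of 3R, and 23 of 85 gaps (27.1%) were under 500 bp, against 14.7% in the rest of 3R. Region length was nearly the same, with a median of 1565 bp in the window (1001 to 4403 bp) and 1453 bp in the rest of 3R. Scores, on the authors' own unstated scale, also lay close together, with medians of 0.413 in the window and 0.402 in the rest of 3R. In replicate 1 the score medians were 0.622 in the window and 0.564 in the rest of 3R, with 11 of 15 window regions above that second value. In replicate 2 they were 0.595 in the window and 0.592 in the rest of 3R, with 9 of 17 above.

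In the combined list the complex lacked the long stretches without a region that other windows of 3R had. Its longest was 3R 12662751 to 12673591 (10841 bp), in the DNA between abd-A and Abd-B, where neither replicate list held a base. Each of the 82 other windows had a longer one, from 12470 bp upwards with a median of 23185 bp. The next longest gaps were 3R 12480000 to 12488497 (8498 bp, limited by the window's edge), which takes in the lower end of Ubx, then 3R 12563285 to 12571039 (7755 bp) and 3R 12592087 to 12599818 (7732 bp), both meeting the span of the noncoding RNA gene lncRNA:bxd. The last of the 5 was 3R 12552752 to 12559712 (6961 bp) inside Ubx, and the replicate lists held 0 bp of any of them. In bins of 10 kb, 27 of 33 in the window were above the median of the rest of 3R (24.5%), and the lowest, at the lower edge, was still 11.6% covered. The densest bin, 3R 12770000 to 12779999 inside Abd-B, was 83.2% covered. The replicate lists, with far fewer regions, left longer stretches of the window without one, up to 48065 bp in replicate 1 and 51396 bp in replicate 2. The other windows were compared for the longest stretch in the combined list only.

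The homeotic genes and the DNA between them are described next in chromosome order, with gene spans placed on release 5 by a fixed offset for this arm. All of these spans were more covered in the combined list than the rest of 3R (26.3%), but the replicates did not place them in 1 order.

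Ubx, which sets the identity of the third thoracic and first abdominal segments, spans 77.8 kb and was 42.4% covered in the combined list. Its 20 combined regions were 1007 to 3524 bp long. Windows of that length elsewhere on 3R had a median of 25.1%, and 92.1% of 2743 such windows were less covered than Ubx. In the replicate lists Ubx was near the rest of the arm, with 4.46% of Ubx covered in replicate 1 and 3.62% in replicate 2 (4.04% ± 0.593, SD, n = 2), against 3.64% and 4.51% of the rest of 3R. The replicate 1 regions in Ubx were 3R 12504581 to 12506131 (score 0.610) and 3R 12530964 to 12532883 (0.557). Those of replicate 2 were 3R 12503060 to 12504411 (0.519) and 3R 12524802 to 12526268 (0.592), and none of these met one of the other replicate.

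The 72.8 kb between Ubx and abd-A carry the bxd regulatory DNA and were 41.2% covered in the combined list, more than 90.1% of windows of that length. The replicate shares were 4.55% and 8.04% (6.30% ± 2.47, SD, n = 2). Here lay the highest-scoring combined region of the window, 3R 12580868 to 12583049 (score 0.597), within the span of lncRNA:bxd, a noncoding RNA gene next to Ubx. That score was above those of 99.6% of combined regions on 3R. Also among the 5 highest, and also within that span, was 3R 12571040 to 12572048 (0.515). Replicate 1 had a region within it, 3R 12580949 to 12582923, whose score of 0.776 was above 99.5% of its regions on 3R. The closest replicate 2 region, 3R 12577665 to 12579162 (score 0.676), lay 1786 bp away. The longest replicate region of the window was also in this interval, 3R 12619319 to 12623674 of replicate 2 (4356 bp), longer than 99.7% of replicate 2 regions on 3R, and replicate 1 had none there. The span of lncRNA:bxd as a whole was 36.7% covered in the combined list, and that of the small gene Glut3, which encodes a member of the glucose transporter family, 66.9%.

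abd-A, which acts in the anterior abdomen, was the most covered of the homeotic genes of the complex in the combined list. Of its 22.8 kb span 61.3% lay in 8 combined regions, more than in 98.1% of windows of that length on 3R. In replicate 1 the share was 30.1%, above every 1 of 2754 such windows, and in replicate 2 it was 8.60%, above 82.8% of them (19.4% ± 15.2, SD, n = 2). The spread between the replicates is nearly as large as their mean. Replicate 1 had 4 regions in the lower part of the gene, 3R 12635496 to 12637057, 3R 12637840 to 12639710, 3R 12639718 to 12641109 and 3R 12641741 to 12643795, with scores of 0.672, 0.519, 0.603 and 0.737. Replicate 2 had 1, 3R 12635670 to 12637633 (score 0.580), which shared 1388 bp with the first of them. The combined region over this pair, 3R 12635195 to 12637631, had a score of 0.513, among the 5 highest in the window.

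The 97.2 kb between abd-A and Abd-B hold the iab regulatory DNA, which directs both genes in the abdominal segments. Of these 52.2% lay in 26 combined regions, more than in 99.5% of windows of that length, and the replicate shares were 6.56% and 8.57% (7.57% ± 1.42, SD, n = 2). Of the 5 longest combined regions in the window 3 were here, namely 3R 12720343 to 12724745 (4403 bp), 3R 12703919 to 12707811 (3893 bp) and 3R 12725827 to 12729394 (3568 bp). The others were 3R 12616669 to 12620764 (4096 bp) between Ubx and abd-A and 3R 12529398 to 12532921 (3524 bp) in Ubx. The 3568 bp region met replicate 1 at 3R 12726098 to 12727548, whose score of 0.866 was above 99.7% of its regions on 3R, and replicate 2 at 3R 12727688 to 12729157 (score 0.652), 139 bp apart from each other. One of the 5 highest scores was here too, 0.509 at 3R 12715432 to 12717198. The long noncoding RNA gene lncRNA:iab8 fills most of the interval and was 53.7% covered, and lncRNA:iab4, a shorter one within it, was 82.9% covered. The microRNA genes mir-iab-4 and mir-iab-8, which come from opposite strands of 1 locus and target homeotic transcripts, lay in no region of any list. Their hairpin began 64 bp beyond the combined region 3R 12679467 to 12681933.

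Abd-B, which acts in the posterior abdomen and genitalia, spans 45.0 kb and was 51.1% covered by 14 combined regions, more than 96.9% of windows of that length. The replicates differed here in the opposite direction from abd-A, with 5.95% in replicate 1 and 18.8% in replicate 2 (12.4% ± 9.10, SD, n = 2). Replicate 1 had 2 regions, 3R 12770967 to 12772300 and 3R 12776523 to 12777869, with scores of 0.548 and 0.691. Replicate 2 had 5, namely 3R 12754276 to 12755750, 3R 12761338 to 12763034, 3R 12778010 to 12779650, 3R 12786903 to 12788812 and 3R 12793075 to 12794829, with scores of 0.536 to 0.685. None of them shared a base with a region of the other replicate. The closest pair, 140 bp apart, lay over lncRNA:CR46267, a noncoding RNA gene inside Abd-B, 97.1% of which was in combined regions.

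**Figure D3:**
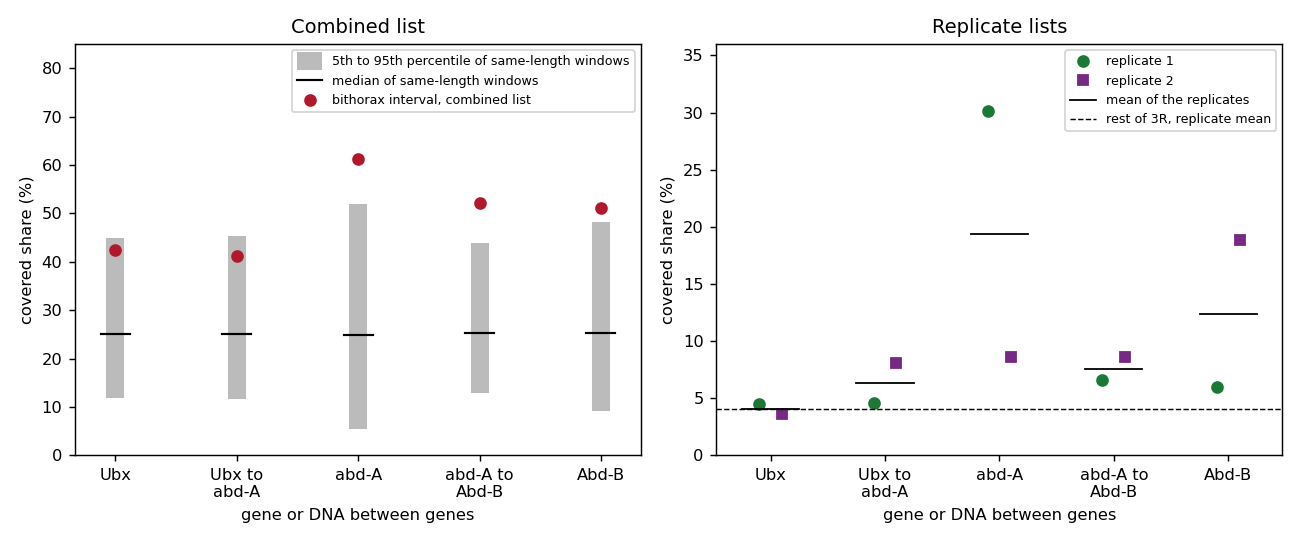
Covered share (%) of Ubx, abd-A, Abd-B and the DNA between them. Left, the combined list (red points) with the 5th to 95th percentile (grey) and median (black) of windows of the same length elsewhere on 3R; abd-A, Abd-B and the DNA between them lie above the grey bars, Ubx and the DNA between Ubx and abd-A inside them. Right, each replicate list with the replicate mean and, dashed, the replicate mean of the rest of 3R (4.07%); replicate 1 is far higher than replicate 2 at abd-A (30.1% and 8.60%) and lower at Abd-B (5.95% and 18.8%).

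The remaining DNA of the window, 12.0 kb beyond Abd-B, holds small genes that are not homeotic. It was 29.1% covered in the combined list, and 17.1% and 12.9% in the replicates. The replicate coverage came from 1 place: replicate 1 had 3R 12799874 to 12801933 (score 0.659) and replicate 2 had 3R 12800204 to 12801759 (0.616), which lies wholly within it. Both took in the whole of VhaM9.7-d, which encodes a proton pump subunit, and 1 end of Actn3, an actinin gene. The combined region there, 3R 12799759 to 12802040, had the second highest score in the window, 0.515. The 2.35 kb of the window below Ubx held no region in any list.

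The replicates seldom marked the same DNA in the complex. Of the 15 replicate 1 regions 2 (13.3%) met one of replicate 2, against 19.2% in the rest of 3R, and of the 17 replicate 2 regions 2 (11.8%) met one of replicate 1, against 15.8%. These were the pairs in the lower part of abd-A and at VhaM9.7-d, so only 1 shared place lay within the homeotic genes and the DNA between them. Another 4 replicate 1 regions lay 139 to 206 bp from a replicate 2 region, in Ubx, abd-A, the DNA between abd-A and Abd-B, and Abd-B. Within 500 bp, 6 of 15 (40.0%) had a replicate 2 neighbour, and in the rest of 3R 23.3% had one. On counts this small the order against the rest of 3R turned with the distance allowed, and no test was made. All 15 and all 17 replicate regions met a combined region.

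Of the 86 combined regions 16 (18.6%) met replicate 1, 18 (20.9%) met replicate 2 and 4 (4.65%) met both, against 13.7%, 17.1% and 3.03% of combined regions in the rest of 3R. The 4 were 3R 12635195 to 12637631 in abd-A, 3R 12725827 to 12729394 and 3R 12748194 to 12750184 between abd-A and Abd-B, and 3R 12799759 to 12802040 at VhaM9.7-d. The third of these includes the upper end of lncRNA:iab8. Neither replicate list met 56 of the 86 (65.1%), against 72.3% in the rest of 3R. The dense combined coverage of the complex therefore rests for the most part on regions that neither replicate list holds. The lists also differ in their shortest regions. In the rest of 3R the shortest was 1301 bp in each replicate list and 1001 bp in the combined list. Combined regions shorter than 1301 bp thus had no replicate region of their length, and what part this had in the count was not tested.

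Gene ends of the complex are described beside those of the rest of the arm. Around the annotated ends of 3R genes H3 regions were sparse, with a minimum of 15.7% covered in the combined list 100 bp outside the gene and 25.7% at 5000 bp outside. In the rest of 3R 16.8% of 8370 gene ends lay inside a combined region, 2.60% inside a replicate 1 region and 3.15% inside a replicate 2 region. In the bithorax window 19 of 42 did (45.2%), beside 46.7% of its bases. In replicate 1 it was 6 ends (14.3%), beside 7.51% of bases, and in replicate 2 it was 5 ends (11.9%), beside 8.79% of bases. Several of these ends share a region: 4 ends of the noncoding RNA genes lncRNA:CR45750 and lncRNA:TS16 lay in 3R 12626277 to 12627714, and 3 ends of VhaM9.7-d and Actn3 lay in the region beyond Abd-B.

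**Figure D4:**
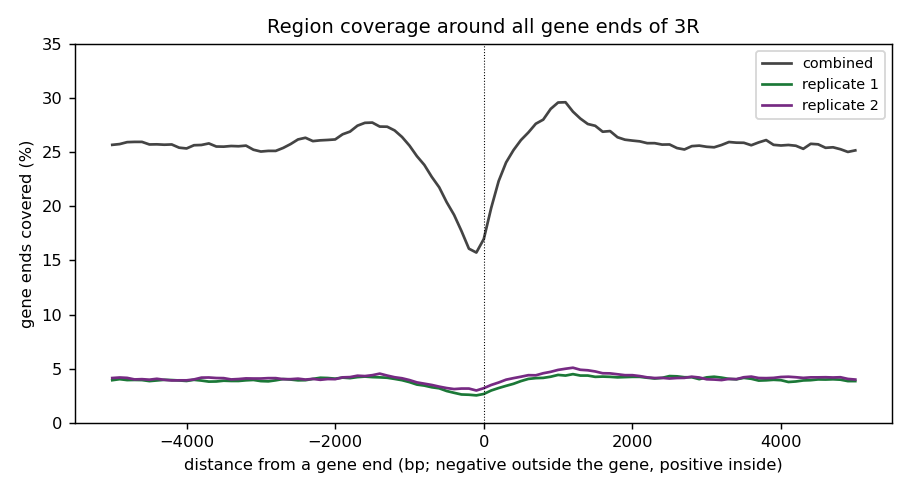
Share of 8411 gene ends of 3R (%) that lie inside an H3 region, by distance in bp from the end, negative outside and positive inside the gene, for the combined list and the replicates. The combined share is lowest, 15.7%, at 100 bp outside and is 25.7% at 5000 bp outside and 25.2% at 5000 bp inside.

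Ubx, abd-A and Abd-B are transcribed towards lower coordinates, so the upper end of each span is its outermost start. The start of Ubx lay inside the combined region 3R 12559713 to 12560719 (1007 bp, score 0.465). That of abd-A lay inside 3R 12654721 to 12655779 (1059 bp, score 0.451), 8 bp from its edge. The outermost start of Abd-B, a gene with several promoters, was 1801 bp from the nearest combined region. In neither replicate list did any of the 3 starts lie in a region, and at Ubx the nearest replicate regions were 20801 and 17517 bp away. Both regions over starts are thus short ones of the combined list alone. Both are shorter than any replicate region on 3R, the shortest of which was 1301 bp, so the replicate lists could not hold them at that length.

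The other annotated genes of the window were covered in the same uneven way. Of its 22 genes 18 met a combined region, 11 met replicate 1 and 9 met replicate 2, against 49.7%, 11.3% and 12.2% of the 4184 genes of 3R that lie outside the window and within the release 5 arm. Longer genes have more bases with which to meet a region, and the median gene outside the window was 1775 bp long. The genes without any region were modSP, which encodes a serine protease of the immune response at the lower edge, CG18622 at the upper edge, mir-iab-4 and mir-iab-8. MSAmiP, annotated as a protein-coding gene within lncRNA:iab8, was 50.6% covered, and the antisense RNA gene asRNA:PS4 inside Ubx 50.0%. Overlapping genes share their regions, so these values are not independent.

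The combined shares of Ubx, abd-A and Abd-B fell within the range of other developmental regulators of 3R. The Antennapedia complex, which holds the homeotic genes of the head and anterior thorax, was 41.5% covered from lab to Antp (337.8 kb), with 7.07% and 5.97% in the replicates. Among its 8 listed genes Scr, which acts in the labial and first thoracic segments, was the most covered, at 68.4% in the combined list and 18.6% and 25.4% in the replicates. Antp, the main homeotic gene of the thorax, had 47.0%, pb 40.9%, lab 37.9% and Dfd 36.9%, the last 3 being homeotic genes of the head. The 8 had a median of 39.4%, and 6 were above the 26.3% of bases covered in the rest of 3R. Of all 4184 genes outside the bithorax window 37.7% were above that value and the median was 0%, many being short genes that no region met. Of 10 developmental genes of 3R known as Polycomb targets, which encode transcription factors and the signal hh, 8 were above 26.3%, with a median of 45.8%, from 15.3% at C15 to 100% at the small gene bap. The replicate lists differed over these 10. In replicate 1 only lbl (19.7%) and Ptx1 (20.8%) were covered at all, and in replicate 2 all but tin and hh were. Of 8 genes transcribed in adult heads 2 were above 26.3%, with a median of 21.9%, itself above the median of all genes. The pair above 26.3% were the rhodopsin genes Rh3 (90.4%) and Rh6 (82.9%), short genes each met by 1 region. The longer neuronal genes ChAT, VAChT, Ace, slo and cpx were at 23.6%, 25.6%, 14.7%, 9.17% and 20.2%. ninaE, the main rhodopsin gene, was at 0% in the combined list though 72.0% of it lay in a replicate 1 region.

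**Figure D5:**
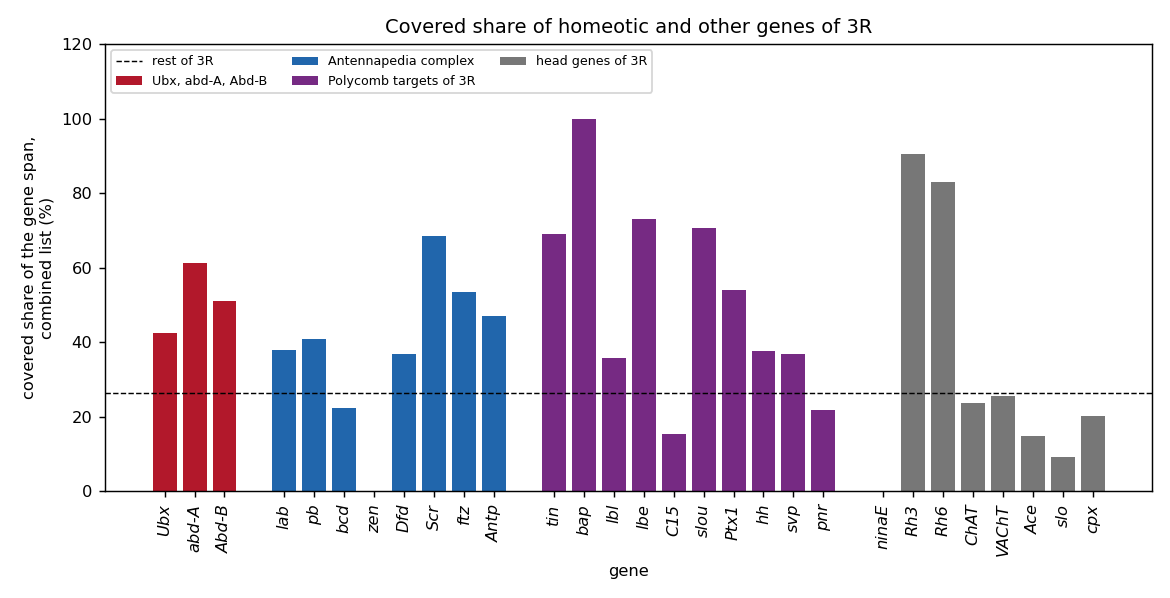
Covered share of the gene span in the combined list (%) for Ubx, abd-A and Abd-B (red), 8 genes of the Antennapedia complex (blue), 10 Polycomb targets of 3R (purple) and 8 genes transcribed in heads (grey); the dashed line is the rest of 3R, 26.3%. The 3 bithorax genes stand at 42.4%, 61.3% and 51.1%, within the range of the blue and purple bars.

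Against the 239 protein-coding genes of 3R that span at least 20000 bp, whose combined shares ran from 0% to 78.7% with a median of 23.9%, abd-A was the 5th most covered, Abd-B the 9th and Ubx the 25th. The most covered was ss, a regulator of antenna and distal leg identity, at 78.7%, followed by Scr. In replicate 1 abd-A was the 1st, Abd-B the 50th and Ubx the 74th, and in replicate 2 Abd-B was the 5th, abd-A the 41st and Ubx the 113th. Ubx was thus the least covered of the 3 in each list, and the order of abd-A and Abd-B turned between the replicates.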

How the data were processed

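Enrichment of histone H3 over Input was profiled by ChIP-seq in 2 ChIP libraries with 2 Input libraries. The authors deposited 3 lists of regions with a score each, on FlyBase release 5 per the file headers. The submitters' processing notes name Bowtie 0.12.7. Not given in the sources used here are the region caller, its threshold, the scale of the score and how replicates were joined. A threshold could set region lengths and numbers. Depth is unknown, so no counting interval is given. The Input libraries enter through the authors' calling only.

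Genes of 3R (4226) came from the RefSeq gene table of Release 6 plus ISO1 MT. They were placed on release 5 by the constant offset for this arm, 4174278 bp, that the definition of the window gives, and the sparse coverage at gene ends was seen at this placement. The table has no strands or exons, so exons, introns and UTRs were not analysed here. The direction of transcription of Ubx, abd-A and Abd-B is background knowledge.

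Covered shares count bases inside a region. Regions meet if they share at least 1 bp. Windows were tiled outwards from the bithorax window, or slid in steps of 10000 bp for windows of gene length. Named were the genes of the window, 3 gene lists, each replicate region, the 5 longest and 5 highest-scoring combined regions, those over starts or met by both replicates, and the 5 longest gaps. Genes of at least 20000 bp, the 20 gene-poor windows, ss, the densest 10 kb bin and the steps beyond the window were chosen after their values were seen. The members and lists were chosen with earlier results of these data known. Functions were checked on simulated regions. Python 3.11.15, numpy 2.4.6, scipy 1.17.1 and matplotlib 3.10.9 were used. Alternatives were score and length limits, merging, each replicate list, other windows and other overlap rules.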

Additional observations from a re-analysis of the deposited data

How the results depend on the processing

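Coverage of the bithorax window over the rest of 3R (1.78 times in the combined list) stayed above 1 in each alternative, at 2.09 with scores and 1.90 with lengths at or above the list median, 2.06 with replicate 1 and 1.95 with replicate 2. Ubx turned to 0.804 with the replicate 2 list and was 1.22 with replicate 1 and 1.99 at the score limit. The DNA between Ubx and abd-A was at 2.08 at the score limit. The DNA between abd-A and Abd-B was at 2.10 and 2.49 at the score and length limits and at 1.80 and 1.90 in replicates 1 and 2. abd-A reached 8.27 in replicate 1 and Abd-B 4.18 in replicate 2. The window's rank was 3 at the score limit, 2 at the length limit, 3 in replicate 1 and 6 in replicate 2, and 1 with the tiling moved by part of a window, among 2693 windows of a sliding scan, and for Ubx to Abd-B. Against the 20 gene-poor windows alone, an alternative chosen after seeing the data, it was 2 in replicate 1 and 3 in replicate 2. The window's regions numbered 42 at the score limit and 49 at the length limit, fewer by construction. They numbered 15 in replicate 1 and 17 in replicate 2, which are separate lists. The longest gap was 21102, 24429, 48065 and 51396 bp in the same order. The score difference of 0.0106 was 0.0575 in replicate 1. Within 500 bp 6 replicate 1 regions had a neighbour in place of 2, and 0 starts lay in a region of replicate 1 or of replicate 2. The causes were not tested. Without 1 replicate, the mean share ranged from 7.51% to 8.79% in the window, 3.62% to 4.46% over Ubx, 4.55% to 8.04% between Ubx and abd-A, 8.60% to 30.1% over abd-A, 6.56% to 8.57% between abd-A and Abd-B and 5.95% to 18.8% over Abd-B, and the mean number of regions from 15 to 17. No paired analysis was possible because, although the labels share replicate numbers between ChIP and Input, Input values were not at hand. The window and the rest of 3R were compared within each library. With depth unknown, DNA without a region is not shown to lack enrichment.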
